A study of Homo sapiens with 8 samples.

Results

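The genes described here are 43 regulators of pre-mRNA splicing, taken as a list of gene names rather than by a threshold on a measured value: 10 SR proteins, 5 SR-related proteins, 13 hnRNPs, 3 polypyrimidine tract binding (PTB) proteins, 4 CLK kinases and 8 other regulators. They are 43 of the 21256 genes with an annotated junction in the tables. A junction belonged to a listed gene when it shared a splice site with it, which held for 2089 of 654181 junctions, and 840 of these were introns of the listed genes in GENCODE 29. The cells were HEK293, an established human embryonic kidney line. One group had received 25 nM LMI070 (branaplam), a small molecule splicing modulator, and the other DMSO, its solvent; each group had 4 libraries of total RNA depleted of ribosomal RNA, LMI070 replicates 13 to 16 and DMSO replicates 9 to 12. LMI070 replicates 13 and 16 and DMSO replicates 11 and 12 were read in lane 7, the other libraries in lane 8, and the labels' run codes differ between lanes. The labels do not say whether libraries of the same group stem from different cultures, and each p therefore measures the spread between these libraries only, which may be technical.

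SR proteins carry arginine-serine repeats, bind exonic enhancers and favour exon inclusion, whereas hnRNPs often act against them. Many of these genes hold a poison exon, an exon whose inclusion brings a premature stop codon, so that the transcript is a target of nonsense-mediated decay. The protein frequently promotes its own poison exon or a splicing event in its own 3′ UTR, and in this way keeps its own level within limits. LMI070 is known to strengthen the pairing of U1 snRNA with certain 5′ splice sites, above all those where the exon ends in GA.

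Uniquely mapped junction reads numbered 20369466 to 36131054 per library in LMI070 and 21975349 to 26716014 in DMSO. The 10 genes used as markers of HEK293 were all over 1 CPM (CPM, spliced reads scaled to library size), and their sum was 1440 to 1570 CPM in LMI070 and 1400 to 1570 CPM in DMSO. Of 6 fibroblast markers, 3 were over 1 CPM, and the list summed to 31.7 to 40.8 CPM in LMI070 and 27.7 to 34.1 CPM in DMSO. The blood, epithelium and hepatocyte lists had no gene over 1 CPM, and HBB and SERPINA1 had no read. The treatment left its mark outside the list. An unannotated 54-nt SF3B3 exon was included at 4.14% ± 0.739 in LMI070 and was not read in DMSO (SD, 4 libraries each; adjusted p = 4.36e-12, edgeR quasi-likelihood test). An unannotated 115-nt HTT exon, a known response to this compound, was at 7.70% ± 1.54 in LMI070 and 0.210% ± 0.420 in DMSO (adjusted p = 0.00972, edgeR). In a multidimensional scaling of log2 gene levels, LMI070 replicate 16 was at 0.794 on the first axis, where the other 7 libraries were between -0.243 and 0.145. DMSO replicate 12 was at 0.689 on the second axis, where the others were between -0.322 and 0.169. Both came from lane 7.

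Among the 43 regulators, SREK1 was the only gene with an exon or junction past the test. Its pair of junctions had been singled out from earlier results of these data, so the values are no independent support for that result. SREK1, an SR-related protein that acts with SR proteins at splice sites, lies at chr5:66139971-66183615 (GRCh38, plus strand). One 5′ splice site is joined there to either of 2 annotated 3′ splice sites that compete for it. The downstream one opens a 115-nt exon. The upstream one lengthens this exon by 175 nt to 290 nt, a form that GENCODE 29 gives only in SREK1-213, a nonsense-mediated decay transcript whose stop codon ends 50 nt after the upstream site. The sites are given as GENCODE 29 transcripts hold them (plus strand), because the change rests on the choice between them. Capitals mark the last 2 intron bases of a 3′ splice site, the last 3 exon and first 6 intron bases of a 5′ splice site, or the stop codon.
Shared 5′ splice site, chr5:66163911-66163934: ctattgaacCAGGTAAGTacataa
Upstream 3′ splice site, chr5:66164590-66164617: ttatatgtactgctgcAGggtggctgca
Downstream 3′ splice site, chr5:66164765-66164792: gtgattttttcctcccAGagtctggaaa
Stop codon of SREK1-213, chr5:66164646-66164663: ggatgtttcTGAaggagg
Annotated 5′ splice site of both exon forms, chr5:66164886-66164909: atcaaaacaCAGGTGAGAatttct

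Reads of the SREK1 junction to the upstream site, chr5:66163923-66164607, numbered 88, 56, 47 and 67 in LMI070 replicates 13 to 16, against 26, 27, 23 and 22 in DMSO replicates 9 to 12. Its share of the reads that compete at either end was 25.7%, 22.7%, 24.1% and 31.5% in LMI070, against 13.2%, 9.85%, 9.31% and 9.78% in DMSO. Each LMI070 library was above each DMSO library, and LMI070 replicate 16 was the highest. The share averaged 26.0% ± 3.85 in LMI070 and 10.5% ± 1.79 in DMSO (SD, 4 libraries each). The difference was 15.5 points with a 95% interval of 9.90 to 21.6 points, a log2 odds ratio of 1.58 ± 0.23 (SE) and an adjusted p of 6.07e-08 by the edgeR quasi-likelihood test over 85579 junctions.

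The competing SREK1 junction to the downstream site, chr5:66163923-66164782, fell. It had 254, 191, 147 and 146 reads in LMI070 replicates 13 to 16, against 171, 246, 223 and 201 reads in DMSO replicates 9 to 12. Its share was 73.8%, 75.8%, 74.2% and 67.3% in LMI070, against 86.8%, 89.8%, 90.3% and 89.3% in DMSO. The groups did not overlap in this share either, and the difference was -16.3 points (95% interval -22.4 to -10.6, adjusted p = 1.88e-08, edgeR). Of the reads of both junctions together, those to the upstream site made up 28.6% in LMI070 and 9.61% in DMSO within lane 7, and 23.4% in LMI070 and 11.5% in DMSO within lane 8. Both junctions kept an adjusted p under 0.05 in each lane alone, without DMSO replicate 12 and LMI070 replicate 16, and in all other settings tried. These 2 were the only junctions to pass of 592 tested in the 43 genes, where 0.258% of all junctions passed. At an unadjusted p under 0.05, 13 of the 592 were higher and 16 lower, where 2072 were higher and 2153 lower of all 85579.

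**Figure D1:**
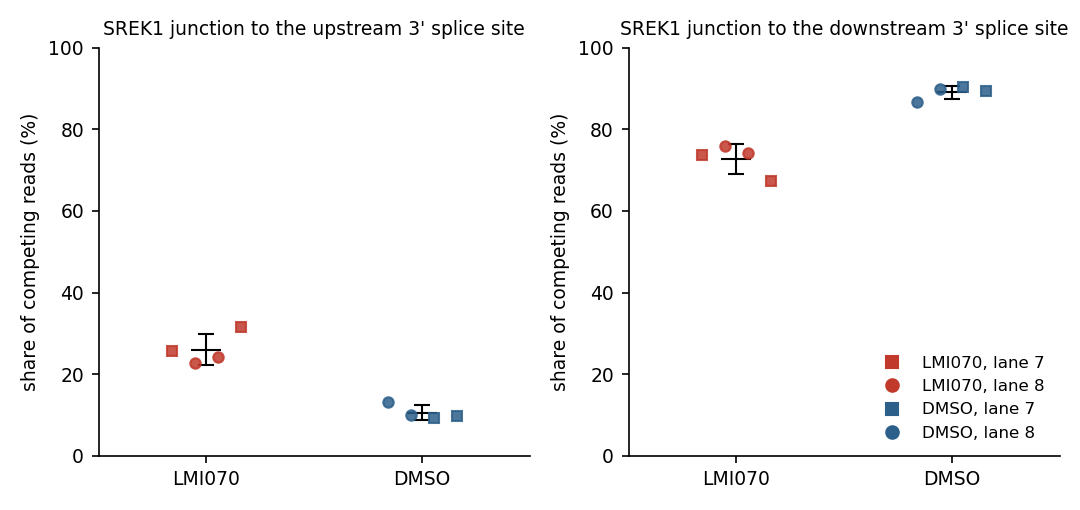
Share of competing reads (%) of both SREK1 junctions in each library, LMI070 left and DMSO right; squares are lane 7, circles lane 8, and black bars the mean ± SD of 4 libraries. The upstream junction averaged 26.0% in LMI070 and 10.5% in DMSO, and no LMI070 library overlaps a DMSO library in either panel.

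Within the SREK1 extension, 2 unannotated 5′ splice sites were joined to the downstream 3′ splice site in LMI070 reads, with 0 such reads in DMSO. They would end the extended part as separate exons of 70 nt and 93 nt. The sites are shown because the 70-nt form ends in the bases GA, and the 93-nt form does not.
End of the 70-nt form, chr5:66164666-66164689: gatgtacagAGAGTAGGCcccttg
End of the 93-nt form, chr5:66164689-66164712: gcactatatGTGGTACATtccact
The junction from the first, chr5:66164678-66164782, had 1, 2, 1 and 0 reads in LMI070 replicates 13 to 16, and the junction from the other, chr5:66164701-66164782, had 1, 3, 2 and 4. Set against the 258 upstream reads of LMI070, the 4 and 10 reads amount to 1.55% (exact binomial 95% interval 0.424 to 3.92%) and 3.88% (1.87 to 7.01%). With 0 reads in DMSO against 98 upstream reads, a share of up to 3.06% is allowed there, for counting error only. This value is above the share of the 70-nt form and within the interval of the 93-nt form. As a share of the upstream reads, a difference between groups was therefore not detectable for either at this depth. The upstream reads were themselves higher in LMI070. The limit therefore does not cover the counts as such, 4 and 10 in LMI070 and 0 in DMSO for the 70-nt and 93-nt forms. As whole exons both passed, but their inclusion is carried by the upstream junction, which they share with the 290-nt form. Inclusion of the 70-nt form was 14.9%, 13.2%, 14% and 18.7% in LMI070, against 7.07%, 5.20%, 4.90% and 5.19% in DMSO. That of the 93-nt form was 14.9%, 13.4%, 14.3% and 19.6% in LMI070, against the same values in DMSO. Neither group overlapped the other. The differences were 9.61 points (95% interval 5.68 to 14.2, adjusted p = 2.08e-05) and 9.94 points (5.90 to 14.5, adjusted p = 1.46e-05) by edgeR, and with the less covered inclusion junction alone no listed exon passed. These were the 2 exons to pass of 341 tested in the 43 genes; 0.338% of all 38161 cassette exons passed. At an unadjusted p under 0.05, 18 of the 341 were higher and 7 lower, where 1058 were higher and 915 lower of all 38161. Forms of an exon that share a splice site are counted separately here.

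The level of SREK1 did not follow its splicing past the test. Spliced reads of SREK1 were 120, 113, 115 and 109 CPM in LMI070 replicates 13 to 16, against 119, 119, 110 and 121 CPM in DMSO replicates 9 to 12 (log2 fold change -0.04, 95% interval -0.13 to 0.06, adjusted p = 0.812, edgeR). Reads in junctions annotated only in decay transcripts made up 3.5%, 3.5%, 3.43% and 4.47% of SREK1 spliced reads in LMI070, against 2.33%, 2.12%, 1.70% and 1.90% in DMSO. Over the 34 listed genes with such junctions, 118 junctions in all, this share differed by 1.71 points in SREK1, which contains the junctions chosen above. In the other genes it lay between -0.973 points in CLK4 and 0.200 points in RBM39, lower in 20 of the 34 genes and higher in 14. No test was made on it.

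Poison exons of the other regulators showed no change past the test. An annotated poison exon is meant here as one found in at least 1 nonsense-mediated decay transcript of GENCODE 29 and in no protein-coding one, with reads of both inclusion junctions and a skipping junction. There were 57 in 29 of the 43 genes, and the other 14 genes had none of this form. Reads sufficed to test 36 of them in 23 genes (at least 10 inclusion and 10 skipping reads in all, and 10 reads in each library). None of the 36 passed and none had an unadjusted p under 0.05 by edgeR, while DESeq2 called none of the 341 exons. Of the 1906 poison exons tested in all genes, 4 passed by edgeR, all higher. At an unadjusted p under 0.05, 50 of the 1906 were higher and 21 lower, so the result for the 36 is close to these shares. The differences ran from -8.72 to 4.58 points with a median of -0.029. The median was 0.028 over all poison exons and 0.0027 over all exons. In 33 of the 36 the whole 95% interval of the difference lay within 10 points.

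The 5′ splice sites of 8 of these poison exons are shown for comparison with the SREK1 site that ends in GA (GENCODE 29 transcripts, GRCh38; the last 3 exon and first 6 intron bases are in capitals). None of the 36 exons ended in GA and 17 ended in AG. Of the 315 tested exons of listed genes whose end a transcript covers, 6 ended in GA, among them none of the 153 that are annotated as a whole. The 6 are not separate sites. They include SRSF10 forms of 56, 122 and 140 nt, annotated in part only, that share the same end in GA. The SRSF10 junction from that end had 7178 reads.
SRSF3 456-nt exon, chr6:36600265-36600288, plus strand: aacccaaaaCTAGTAAGTttttcc
TRA2B 276-nt exon, chr3:185931565-185931588, minus strand: gcactacgcTAAGTAATTactagt
SRSF7 449-nt exon, chr2:38748886-38748909, minus strand: caaacttgcAAGGTTTATtttaaa
SRSF2 104-nt exon, chr17:76735760-76735783, minus strand: gtattggagCAGGTTTGTctttaa
SRSF11 117-nt exon, chr1:70231964-70231987, plus strand: aatcgagtaCAGGTGATGaaatct
HNRNPL 70-nt exon, chr19:38841601-38841624, minus strand: aagcgtccaATGGTAAGAgaaaat
HNRNPDL 105-nt exon, chr4:82425551-82425574, minus strand: cgctgtcctGTGGTATGGtctctt
RBM39 73-nt exon, chr20:35740513-35740536, minus strand: gtcaatcatAAGGTAGTAattgag

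Among SR proteins, SRSF3 is the smallest and binds its own poison exon, 456 nt at chr6:36599821-36600276 (plus strand). This exon was included at 2.26%, 2.61%, 2.27% and 1.89% in LMI070 replicates 13 to 16, against 2.62%, 2.09%, 2.34% and 2.15% in DMSO replicates 9 to 12, a difference of -0.0428 points with an interval of -0.392 to 0.453. SRSF7 has a 449-nt poison exon at chr2:38748898-38749346 (minus strand). Its inclusion was 3.36%, 2.87%, 2.26% and 3.10% in LMI070, against 2.91%, 2.94%, 3.38% and 3.44% in DMSO (interval -0.795 to 0.486 points). In both genes the groups overlapped, and a change of 1 point would lie outside the interval.

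SRSF2 carries its 104-nt poison exon in the 3′ UTR, chr17:76735772-76735875 (minus strand). Inclusion was 3.16%, 3.06%, 3.10% and 3.16% in LMI070, against 3.65%, 3.17%, 3.36% and 3.83% in DMSO. All 4 LMI070 values lay below the DMSO values, by 0.381 points on average (interval -0.901 to 0.277), but the nearest were 3.16% and 3.17%. The share of all exons that separate the groups in this way is not given here. SRSF6 has a 268-nt poison exon at chr20:43459153-43459420 (plus strand), included at 14.5%, 13.2%, 14.4% and 22.6% in LMI070, against 11.1%, 16.7%, 16% and 15.4% in DMSO. LMI070 replicate 16 stood above all other libraries, and the remaining LMI070 values lay within the DMSO range. SRSF11, a protein linked to U2AF and 3′ splice sites, has a 117-nt poison exon at chr1:70231859-70231975 (plus strand), with 13.5%, 15.9%, 12.5% and 12.3% in LMI070 and 12.6%, 12.3%, 13.9% and 11% in DMSO. The groups overlapped, and the less covered of its inclusion junctions had 18% of the reads of the other, so its value rests mainly on 1 junction. SRSF1, the founding SR protein, showed a 203-nt exon at 98.5% ± 0.713 in LMI070 and 98.6% ± 0.592 in DMSO, but one of its junctions had 0.206% of the reads of the other, so the value rests on 1 junction. SRSF4 had 195-nt, 175-nt and 136-nt poison exons, with differences of -0.285, -0.134 and -0.106 points. The inclusion junctions had 218 and 3 reads for the 175-nt exon and 8 and 58 for the 136-nt exon, so each value rests mainly on 1 junction. The difference of the 195-nt exon was 0.251 points in lane 7 alone and -0.821 points in lane 8 alone. With its less covered inclusion junction alone it was -1.23 points.

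TRA2B, an SR-related protein that binds GAA-rich enhancers and its own poison exon, includes 276 nt at chr3:185931577-185931852 (minus strand). Inclusion was 6.83%, 5.55%, 6.70% and 6.55% in LMI070 replicates 13 to 16, against 7.54%, 6.55%, 6.21% and 6.82% in DMSO replicates 9 to 12 (interval -1.43 to 1.05 points). The 79-nt poison exon of its paralog TRA2A, at chr7:23522354-23522432 (minus strand), was at 6.70%, 4.19%, 4.27% and 4.33% in LMI070, against 6.24%, 4.76%, 5.50% and 3.73% in DMSO. Both groups overlapped in each gene, with LMI070 replicate 13 the highest in TRA2A. The inclusion junctions of the 79-nt TRA2A exon had 34 and 230 reads. The junction with 230 reads is shared with a 312-nt noncoding form and a 301-nt coding form, so the TRA2A value rests mainly on that shared junction. SRRM1, a coactivator that bridges SR proteins, had a 130-nt poison exon at chr1:24647079-24647208 (plus strand) with 9.48%, 13%, 6.77% and 10.7% in LMI070, against 8.37%, 8.76%, 14.1% and 13.9% in DMSO. Here the DMSO values of lane 7 were above those of lane 8, and the interval of the difference ran from -4.30 to 2.25 points.

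The hnRNP genes gave the same result. HNRNPL binds CA-rich RNA and regulates its own 70-nt poison exon, chr19:38841613-38841682 (minus strand), which was at 1.62%, 1.80%, 1.72% and 1.56% in LMI070, against 1.42%, 1.85%, 2.05% and 1.47% in DMSO (interval -0.417 to 0.404 points). HNRNPDL has a 105-nt poison exon in its 3′ UTR, chr4:82425563-82425667 (minus strand), with 3.09%, 2.50%, 2.57% and 2.55% in LMI070, against 2.23%, 2.34%, 2.43% and 2.81% in DMSO. LMI070 replicates 14 to 16 lay within the DMSO range and replicate 13 above it.

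The 136-nt poison exon in the 3′ UTR of HNRNPA2B1, chr7:26190993-26191128 (minus strand), was included at 71.1%, 68.1%, 67.7% and 67.6% in LMI070, against 70.8%, 68.5%, 74.3% and 76.2% in DMSO. The difference was -3.81 points (interval -9.08 to 1.42), the groups overlapped, and the smaller inclusion junction had 18.5% of the reads of the larger. This share holds only within a rare event. Its skipping junction had 373 reads, whereas the HNRNPA2B1 3′ UTR intron with most reads had 23078. Junctions annotated only in decay transcripts made up 0.502% of HNRNPA2B1 spliced reads in LMI070 and 0.567% in DMSO. The poison exons of largest depth in HNRNPH1, HNRNPD and HNRNPU had under 100 inclusion reads. Their differences were -0.00574 points for the 134-nt HNRNPH1 exon, 0.0495 for the 107-nt HNRNPD exon and 4.58 for the 100-nt HNRNPU exon, whose interval ran from -2.05 to 11.4. A 69-nt HNRNPU poison exon, named after its values were seen, had 480 and 426 inclusion junction reads and 12 skipping reads. It was at 98.5% ± 1.77 in LMI070 and 96.1% ± 2.45 in DMSO (interval -1.0 to 3.4 points).

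RBM39, a U2AF-related factor, had 6 poison exons tested, the most of any listed gene. Its 72-nt exon, chr20:35734186-35734257 (minus strand), was at 1.84%, 2.27%, 1.75% and 2.65% in LMI070, against 1.73%, 1.81%, 2.52% and 1.68% in DMSO. Its 73-nt exon, chr20:35740525-35740597 (minus strand), is named after its values were seen because it had more inclusion reads; it was at 17.5%, 18.2%, 17.2% and 19.2% in LMI070, against 14.5%, 20.1%, 21.2% and 17.3% in DMSO. The 4 LMI070 values of the 73-nt exon lay within the wider DMSO range, and its interval was -2.58 to 1.88 points. In MBNL2, a muscleblind-like regulator, a 54-nt exon at chr13:97356796-97356849 (plus strand) was at 50%, 48.7%, 43.4% and 43.8% in LMI070, against 43.9%, 61.5%, 44.1% and 51.4% in DMSO. With 114 reads of its rarer form the interval was wide, -15.1 to 9.96 points. This MBNL2 exon counts as poison by annotation alone, whereas a 54-nt MBNL1 exon at chr3:152446704-152446757 is annotated as coding. Whether inclusion in MBNL2 brings a premature stop codon was not tested. The 376-nt TIAL1 exon had the lowest difference of the 36, -8.72 points with an interval of -20.1 to 5.93, on 68.5 reads of its rarer form. A 119-nt TIA1 exon, also chosen after its values were seen, was at 10.2% ± 3.06 in LMI070 and 9.02% ± 3.33 in DMSO. The remaining poison exons of largest depth in their gene, in CLK4, SREK1, SRRM2 and TIA1, differed by -0.496, 0.112, 1.35 and 0.157 points. The SREK1 one, 142 nt, shares its downstream junction of 2524 reads with a 145-nt coding form. Its own upstream junction had 298 reads, against 1990 for the coding form, so its inclusion value rests mainly on the shared junction.

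**Figure D2:**
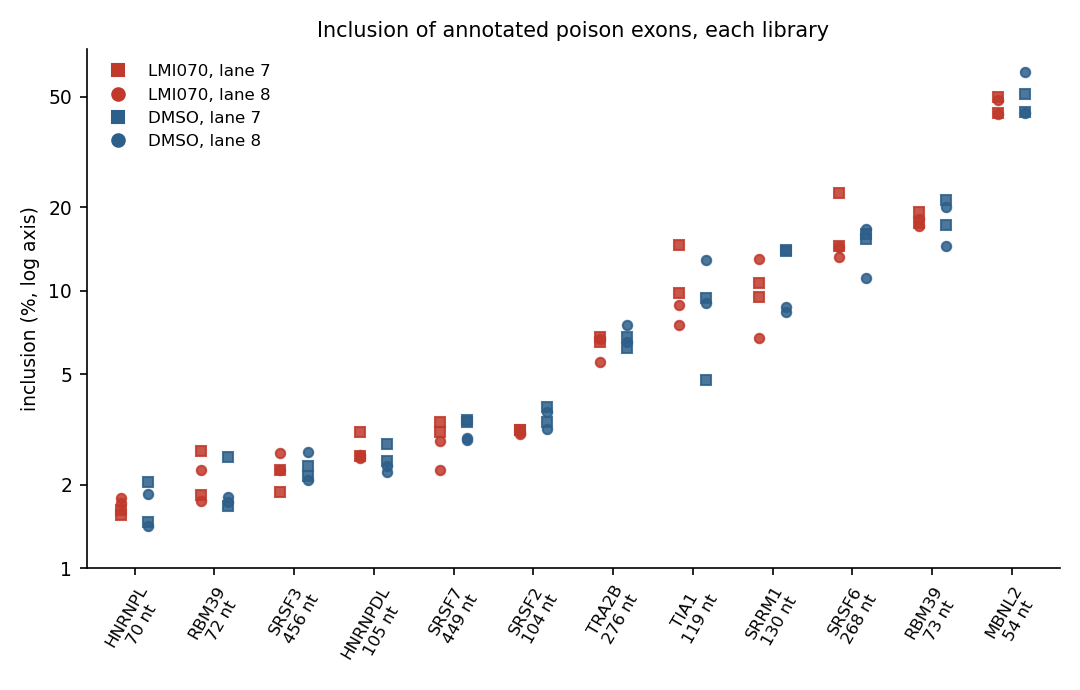
Inclusion (%, log axis) of the 12 annotated poison exons with at least 100 reads of the rarer form and balanced inclusion junctions, each library a point, LMI070 left of DMSO for each exon; squares are lane 7, circles lane 8. Inclusion spans 1.42% in HNRNPL to 61.5% in MBNL2, whose exon, like the others, is called poison by annotation alone. In each exon except that of SRSF2 the points of both groups overlap. In SRSF2 the nearest points are 3.16% in LMI070 and 3.17% in DMSO.

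The opposite arrangement, an exon whose skipping is annotated only in decay transcripts, could be tested in 8 genes, and none passed. CLK1 and CLK4 are kinases that phosphorylate SR proteins, and both skip a 91-nt exon to make a form without kinase activity. The CLK1 exon, chr2:200860125-200860215 (minus strand), was included at 71.0%, 83.6%, 77.0% and 74.1% in LMI070 replicates 13 to 16, against 72.0%, 81.3%, 76.5% and 79.8% in DMSO replicates 9 to 12. The CLK4 exon, chr5:178617344-178617434 (minus strand), was at 76.2%, 80.8%, 83.2% and 82.0% in LMI070, against 74.5%, 81.5%, 63.1% and 69.6% in DMSO. The CLK4 values of both DMSO libraries of lane 7 were the lowest, and the difference of 8.37 points had an interval of -0.257 to 13.8 (adjusted p = 0.974, edgeR).

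The RNA-binding protein QKI had a 143-nt exon of this kind at chr6:163455279-163455421 (plus strand), included at 96.5%, 96.9%, 98.5% and 97.6% in LMI070, against 95.7%, 97.4%, 97.5% and 94.1% in DMSO. RBM5, a regulator of apoptosis genes, had a 74-nt one at chr3:50100532-50100605 (plus strand), at 85.3%, 88.8%, 81.6% and 91.4% in LMI070, against 86.2%, 88.0%, 80.4% and 90.3% in DMSO. HNRNPK, a poly(C) binding protein, included 44 nt at chr9:83975462-83975505 (minus strand) at 99.7%, 99.5%, 99.7% and 99.6% in LMI070, against 99.7%, 99.3%, 99.4% and 99.6% in DMSO. In all 3 genes the groups overlapped. The 34-nt exon of PTBP1, the best known example because PTBP1 represses it in its own RNA, was included at 98.6% ± 1.01 in LMI070 and 97.9% ± 0.559 in DMSO, with an interval of -0.534 to 1.06 points. The exons of HNRNPU and HNRNPH1 were included at 99.8% or more in each library of both groups. In HNRNPH1 the less covered inclusion junction had 0.713% of the reads of the other, and with that junction alone the difference was -6.44 points (adjusted p = 1.0, edgeR) in place of -0.11.

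**Figure D3:**
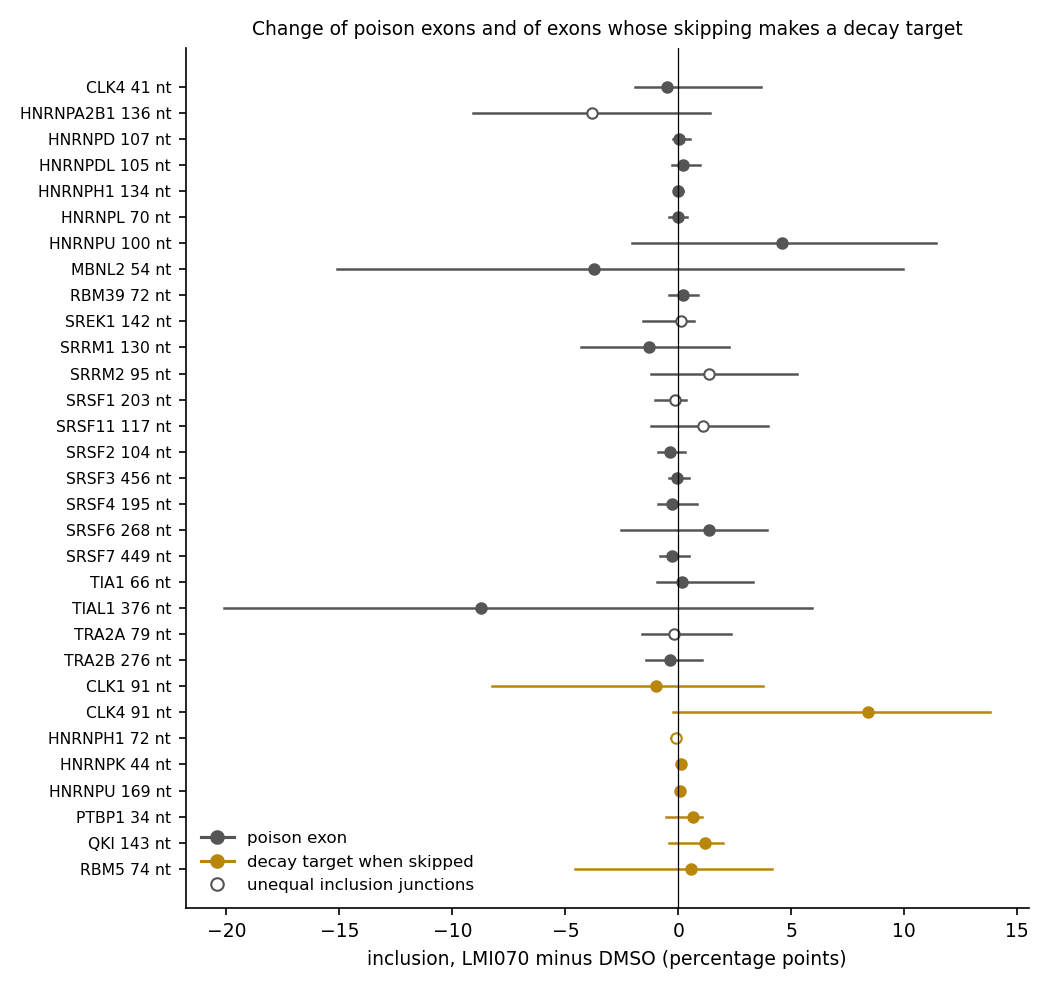
Difference in inclusion, LMI070 minus DMSO, in percentage points, for the poison exon with most reads in each gene (grey) and for exons that make a decay target when skipped (yellow); lines are 95% intervals and open circles mark inclusion junctions of unequal depth. All intervals except those of the HNRNPH1 72-nt and HNRNPU 169-nt exons cross 0, those 2 lie within 0.344 points of it, and the widest belongs to TIAL1, -20.1 to 5.93.

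Coding cassette exons of the listed genes did not pass either: 97 were tested in 34 genes, with 6 higher and 2 lower at an unadjusted p under 0.05. At that threshold 1058 were higher and 915 lower of all 38161 cassette exons. Among the 38 with balanced junctions and at least 100 reads of the rarer form, differences ran from -2.13 to 5.69 points with a median of 0.023. The few named here were chosen after their values were seen. The 78-nt PTBP1 exon at chr19:805492-805569 (plus strand), whose skipping makes PTBP1 a weaker repressor, was included at 86.5%, 82.1%, 84.4% and 90.9% in LMI070, against 80.6%, 83.1%, 81.1% and 82.7% in DMSO. LMI070 replicates 13, 15 and 16 were above all DMSO libraries and replicate 14 was not; the difference of 4.10 points had an interval of 1.2 to 6.01, an unadjusted edgeR p of 0.00614 and an adjusted p of 0.586. A 26-nt exon in the 5′ UTR of HNRNPC was at 83.6% ± 1.07 in LMI070 and 82.2% ± 1.24 in DMSO (adjusted p = 0.484, edgeR). Deeply covered exons bound the differences tightly. The 36-nt HNRNPA2B1 exon, with 8670 reads of its rarer form, was at 27.9% ± 0.819 in LMI070 and 28.8% ± 1.23 in DMSO, and its interval ran from -2.18 to 0.0935 points.

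An intron spliced well downstream of the stop codon can make that stop codon look premature, whereas one close behind it does not. The introns with most reads began 4 to 34 nt of genome behind the last coding base in HNRNPA1, HNRNPA2B1, HNRNPD, HNRNPDL, HNRNPH1, MBNL1 and SRSF2, and 87 to 7850 nt behind it in SRSF5, SRSF1, HNRNPR and HNRNPU. Their share of the annotated spliced reads of the gene could be tested for 30 introns in 11 genes, and none passed by edgeR, with 0.135% of 1478 introns passing in all; at an unadjusted p under 0.05, 1 was higher and 3 lower, where 42 were higher and 53 lower of the 1478. The higher one lies in SRSF2, and the lower ones in HNRNPD, HNRNPA2B1 and HNRNPA1 (chr12:54286733-54286952, 0.153%, 0.169%, 0.174% and 0.210% in LMI070, against 0.198%, 0.188%, 0.234% and 0.269% in DMSO; adjusted p = 0.319, edgeR). The intron with most reads in SRSF2, chr17:76735159-76736153 (minus strand), skips the poison exon and took 81.2%, 76.0%, 77.6% and 82.3% of SRSF2 reads in LMI070 replicates 13 to 16, against 71.2%, 77.1%, 76.7% and 79.3% in DMSO replicates 9 to 12. The groups overlapped, and the 3.20 points of difference (interval 1.17 to 4.88) gave an unadjusted p of 0.00222 and an adjusted p of 0.409 by edgeR. It passed in 1 setting, without DMSO replicate 10, with 3.54 points and an adjusted p of 0.0247.

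In HNRNPD, which binds AU-rich elements, the intron chr4:82354155-82355303 (minus strand) took 17.9%, 18.4%, 18.6% and 17.7% in LMI070, against 20%, 19.3%, 19.6% and 21.2% in DMSO. All LMI070 values were below all DMSO values, by 1.85 points (interval -3.29 to -0.375, adjusted p = 0.606, edgeR). The share of all 3′ UTR introns that separate the groups in this way is not given here, so the separation alone carries no weight. The HNRNPA1 intron with most reads, chr12:54284318-54284548 (plus strand) took 9.96%, 10.2%, 10.4% and 10.8% in LMI070, against 10.3%, 10.5%, 10.3% and 10.3% in DMSO. HNRNPA2B1, at chr7:26192339-26192494, had 6.44%, 6.69%, 6.6% and 7.19% in LMI070, against 6.51%, 7.02%, 7.2% and 7.26% in DMSO. The last 2 introns overlapped between groups, with differences of -0.0172 and -0.266 points.

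HNRNPDL at chr4:82424884-82426036 had 11.6%, 12.2%, 11.9% and 12.1% in LMI070, against 12%, 12%, 12.5% and 12.3% in DMSO. HNRNPH1 at chr5:179614960-179615545 had 6.37%, 6.6%, 6.54% and 6.37% in LMI070, against 6.40%, 6.47%, 5.99% and 6.05% in DMSO. Neither separated the groups. SRSF1 at chr17:58004002-58004922 had 4.84%, 4.69%, 4.10% and 5.08% in LMI070, against 4.93%, 4.42%, 4.56% and 5.49% in DMSO. MBNL1, a muscleblind-like regulator, had 10.6%, 11.2%, 10.2% and 9.53% in LMI070 at chr3:152459346-152462384, against 11.4%, 10.6%, 9.0% and 11.2% in DMSO. These overlapped as well. The introns with most reads in HNRNPU, HNRNPR and SRSF5 each took under 1% of their gene's reads in every library and differed by 0.00783, 0.0118 and 0.0328 points.

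Spliced reads per gene did not change past the test in any of the 43 regulators over all 8 libraries. By edgeR none had an adjusted p under 0.05, where 18 of 13559 genes, 0.133%, did; at an unadjusted p under 0.05, 7 were higher and 1 lower, where 805 were higher and 527 lower of all 13559. DESeq2 called none, and without the filter on low counts edgeR called 4, CLK2, HNRNPA1, HNRNPM and TIAL1. In such bulk libraries fewer cells that express a gene and less RNA per cell cannot be told apart. The median log2 fold change was 0.02, against 0.0049 over all genes, and the range was -0.12 to 0.34. The 10 SR proteins had fold changes of -0.07 to 0.11 over all libraries and the 3 PTB proteins -0.01 to 0.10, with no gene of either family past the test in lane 7 or lane 8 alone. Of 62 other splicing regulators tested and 18 decay factors, none passed by edgeR, with 12 higher and 1 lower and with 1 higher and 1 lower at the same unadjusted threshold.

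HNRNPA1, a repressor of exon inclusion at many splice sites, had 2740, 2508, 2445 and 2557 CPM in LMI070 replicates 13 to 16, against 2335, 2348, 2207 and 2365 CPM in DMSO replicates 9 to 12. CLK2 had 54.1, 56.2, 54.6 and 53.7 CPM in LMI070, against 49.9, 50.3, 45.4 and 42.2 CPM in DMSO. CLK3 had 60.5, 58.0, 63.5 and 59.9 CPM in LMI070, against 57.0, 56.3, 55.5 and 52.1 CPM in DMSO. All LMI070 libraries were above all DMSO libraries in these 3 genes, and 4.12% of all genes did not overlap between groups. Their log2 fold changes were 0.15 (adjusted p = 0.221), 0.22 (adjusted p = 0.162) and 0.13 (adjusted p = 0.418) by edgeR. Among all 43, HNRNPH3, SRRM2 and HNRNPD had the highest fold changes, 0.34, 0.31 and 0.28, and are described by lane further on. CLK1 had the lowest, -0.12 (95% interval -0.24 to -0.01, adjusted p = 0.467), with 64.1, 74.4, 71.4 and 65.4 CPM in LMI070, against 74.3, 71.4, 75.2 and 78.6 CPM in DMSO. The LMI070 libraries of lane 7 were the lowest. TIA1, SRSF7 and CLK4 came next with -0.07 each. They had 112 ± 7.43 CPM in LMI070 and 118 ± 2.99 CPM in DMSO for TIA1, and 352 ± 20.9 CPM in LMI070 and 370 ± 7.73 CPM in DMSO for SRSF7, and CLK4 had 29.9 ± 1.36 CPM in LMI070 and 31.4 ± 1.56 CPM in DMSO.

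A group of regulators split by lane. In lane 7 both LMI070 libraries were above both DMSO libraries in HNRNPH3, SRRM2, HNRNPD, SRRM1, TIAL1, HNRNPA2B1 and HNRNPM, and in lane 8 none of these 7 was. The interaction of treatment with lane, an alternative added after the data were seen, had an adjusted p under 0.05 for these 7 of the 43, or 16.3%, where 2.94% of all 13559 genes passed. In the list of other splicing regulators 9 of 62 passed it, 14.5%, and 1 of 18 decay factors. Separation in lane 7 but not in lane 8 was not particular to the 7 genes. QKI, TRA2A and HNRNPU also showed it and did not pass the interaction with all libraries. The share of all genes that separate in this way is not given here, so the separation alone carries no weight. HNRNPH3, an hnRNP of the H/F group, had 238 and 210 CPM in LMI070 replicates 13 and 16, against 119 and 130 CPM in DMSO replicates 11 and 12, all from lane 7. In lane 8 it had 126 and 122 CPM in LMI070 replicates 14 and 15, against 138 and 144 CPM in DMSO replicates 9 and 10. So HNRNPH3 rose in lane 7 (log2 fold change 0.84 ± 0.072 SE, adjusted p = 4.97e-09) and fell in lane 8 (-0.19 ± 0.039, adjusted p = 0.0011) when each lane was fitted alone with edgeR. The lanes differed by 1.03 on the log2 scale (adjusted p = 1.69e-08).

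SRRM2, a large SR-related scaffold protein of nuclear speckles, had 154 and 154 CPM in LMI070 against 101 and 97.3 CPM in DMSO in lane 7, and 99.6 and 106 CPM in LMI070 against 109 and 99.9 CPM in DMSO in lane 8. SRRM1 had 163 and 162 CPM in LMI070 against 108 and 116 CPM in DMSO in lane 7, and 114 and 115 CPM in LMI070 against 121 and 116 CPM in DMSO in lane 8. HNRNPD had 174 and 168 CPM in LMI070 against 103 and 121 CPM in DMSO in lane 7, and 111 and 115 CPM in LMI070 against 115 and 122 CPM in DMSO in lane 8. In these 3 genes the lane 7 libraries of LMI070 stood above all 6 others. The lane 7 fold changes were 0.63, 0.54 and 0.62 for SRRM2, SRRM1 and HNRNPD, and those of lane 8 were -0.02, -0.05 and -0.07. The interactions had adjusted p values of 1.33e-05, 1.92e-05 and 2.1e-05 by edgeR.

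TIAL1, a U-rich RNA-binding protein, had 79.1 and 77.7 CPM in LMI070 against 53.3 and 60.5 CPM in DMSO in lane 7, with 62.9 and 58.7 CPM in LMI070 against 61.6 and 61.1 CPM in DMSO in lane 8. HNRNPA2B1 had 2194 and 1936 CPM in LMI070 against 1446 and 1622 CPM in DMSO in lane 7, with 1579 and 1578 CPM in LMI070 against 1587 and 1590 CPM in DMSO in lane 8. HNRNPM had 883 and 874 CPM in LMI070 against 687 and 717 CPM in DMSO in lane 7, with 746 and 726 CPM in LMI070 against 737 and 754 CPM in DMSO in lane 8. The lanes differed by 0.48, 0.44 and 0.34 for TIAL1, HNRNPA2B1 and HNRNPM (adjusted p = 0.00449, 0.00142 and 0.000398, edgeR). Every junction of these 7 genes with at least 400 reads was higher in LMI070 in lane 7, from 9 of 9 in HNRNPD and TIAL1 to 18 of 18 in SRRM1. The size of the rise differed between junctions of a gene, and whether by more than counting error was not tested. In lane 7, log2 ratios of single junctions ran from 0.16 to 0.46 in HNRNPM, 0.08 to 0.98 in SRRM1 and 0.14 to 1.2 in HNRNPD. The ranges in lane 8 were -0.09 to 0.05 in HNRNPM, -0.27 to 0.25 in SRRM1 and -0.15 to 0.08 in HNRNPD. The genes were picked by sums of these same reads, so the shared direction is no independent support.

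Fitted in lane 7 alone, 9 of the 43 genes passed, all higher, the 7 above with HNRNPA1 and CLK2, where 4.41% of all genes passed. In lane 8 alone 2 passed, HNRNPA1 higher and HNRNPH3 lower, where 0.359% of all genes passed. The same 7 genes passed the interaction without each library of lane 7 in turn and without both LMI070 replicate 16 and DMSO replicate 12; the number that passed is given with the share over all genes. It was 7 without LMI070 replicate 13 (1.79% of all genes) or 16 (1.86%), 10 without DMSO replicate 12 (4.39%), 12 without DMSO replicate 11 (12.4%) and 11 without the pair (7.1%). Lane, run code and whatever else went with them cannot be told apart, and LMI070 replicate 13 was also the library with most reads; the part of depth was not tested. No exon, junction or 3′ UTR intron of a listed gene had an interaction past an adjusted p of 0.05 by edgeR. At an unadjusted p under 0.05 there were 12 of 341 exons, 27 of 592 junctions and 4 of 30 introns. The share over all features at this threshold is not given here, so no weight is placed on these counts.

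**Figure D4:**
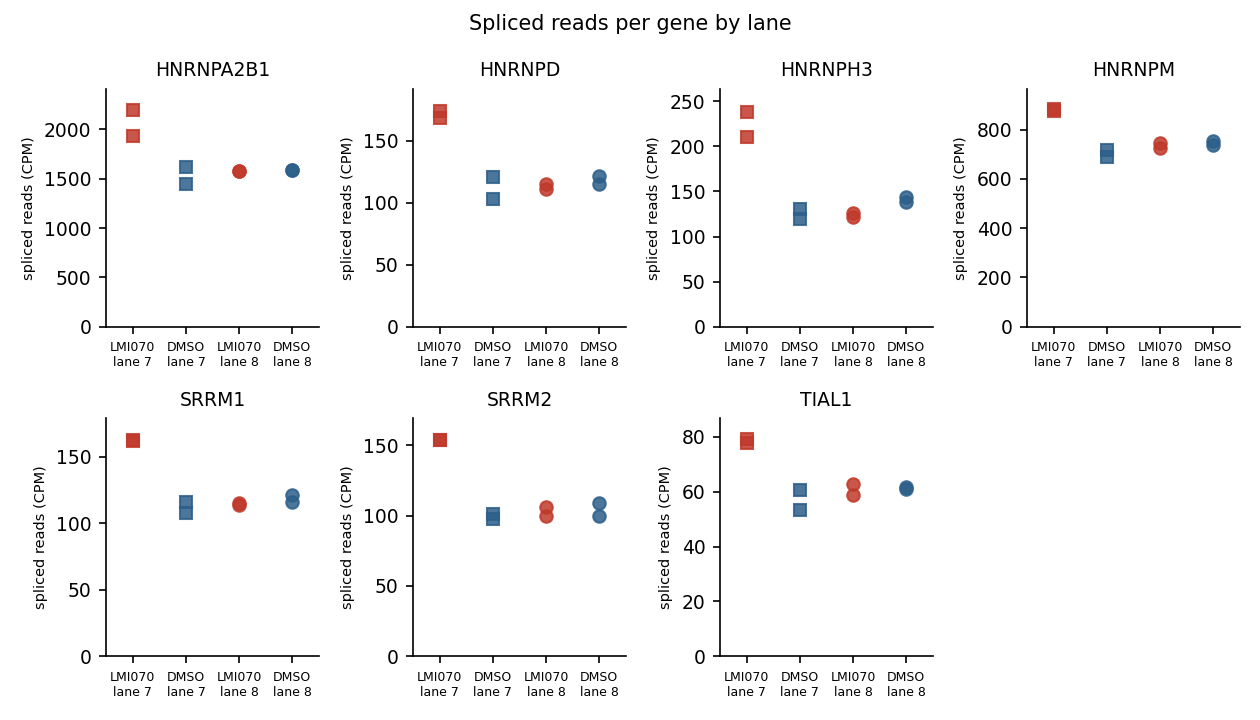
Spliced reads (CPM, axes from 0) in each library of the 7 listed genes whose treatment effect differed between lanes; red is LMI070, blue DMSO, squares lane 7 and circles lane 8. The LMI070 libraries of lane 7 lie above all others in each panel, as in HNRNPH3 with 238 and 210 CPM.

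**Figure D5:**
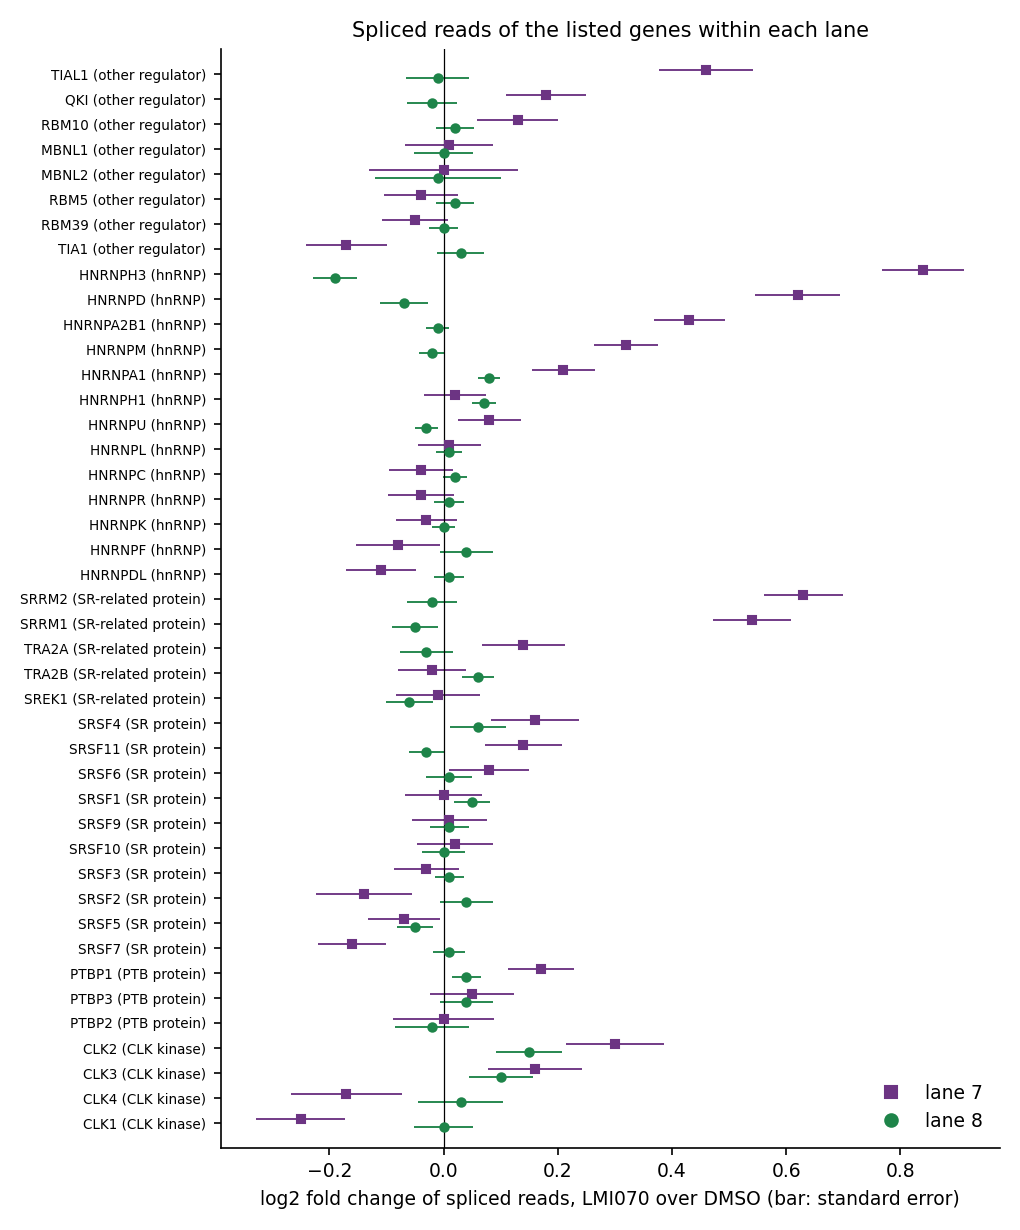
Log2 fold change of spliced reads, LMI070 over DMSO, of all 43 genes fitted within lane 7 (squares) and lane 8 (circles); bars are standard errors and genes are grouped by family. HNRNPH3 lies at 0.84 in lane 7 and -0.19 in lane 8, while among the 10 SR proteins the lane 7 values run from -0.16 in SRSF7 to 0.16 in SRSF4.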

How the data were processed

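The deposited tables hold raw counts of uniquely and of multiply mapped reads across each splice junction, per the readme of column headers; per the submitters' processing notes, STAR 2.6.0c aligned the reads to GRCh38. Alignment settings are not given in the sources used here. Uniquely mapped counts were used, with introns matched to GENCODE 29. Exon inclusion set the mean of the 2 flanking junctions against skipping reads, for exons of 3 to 500 nt. Exons, junctions (at least 20 reads, against those that share a splice site) and 3′ UTR introns (against the other annotated junctions of the gene) were tested as paired counts in edgeR 4.0.16 (R 4.3.3, quasi-likelihood), with library, lane and treatment terms. Gene sums were scaled by TMM and tested with lane and treatment. Benjamini-Hochberg adjustment covered each whole table, and passing means an adjusted p under 0.05. Intervals in points start from the pooled DMSO share. An exon was called balanced when its weaker inclusion junction reached 20% of the stronger. DESeq2 1.42.0, single lanes, left-out libraries and other filters were alternatives. Code was tested on simulated data. Named by rule were features that passed, the SREK1 junctions, in each gene the poison exon, the exon whose skipping makes a decay target and the 3′ UTR intron with most reads, and the 3 highest and 3 lowest genes in fold change; full values went to those with at least 100 reads of the rarer form. Genes, lists (other splicing regulators, decay factors, cell markers) and tests were chosen with earlier results of these data known.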

Additional observations from a re-analysis of the deposited data

Results flagged for a closer look

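The treatment effect on spliced reads differed between the lanes in 7 genes by the interaction test of edgeR. On the log2 scale, lane 7 minus lane 8, the difference was 1.03 in HNRNPH3, 0.69 in HNRNPD, 0.65 in SRRM2, 0.59 in SRRM1, 0.48 in TIAL1, 0.44 in HNRNPA2B1 and 0.34 in HNRNPM. The cause was not tested.

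In 18 of 264 groups of 4 libraries, or 6.82%, 1 library stood far from the other 3 by Dixon's test, which chance does in about 1 in 20 groups. For spliced reads these were SRSF11 in LMI070 replicate 13 (290.0 CPM, others 253 to 256), MBNL2 in LMI070 replicate 16 (13.7 CPM, others 11.9 to 12) and SRSF10 in LMI070 replicate 14 (153 CPM, others 144 to 145). In DMSO they were SRSF6 in replicate 9 (132 CPM, others 125), TIAL1 in replicate 11 (53.3 CPM, others 60.5 to 61.6) and RBM10 in replicate 12 (180.0 CPM, others 211 to 214). Poison exons standing apart in LMI070 were SRSF6 in replicate 16 (22.6%), HNRNPDL in replicate 13 (3.09%), TRA2A in replicate 13 (6.70%), HNRNPA2B1 in replicate 13 (71.1%) and SREK1, 142 nt, in replicate 14 (98.4%). In DMSO they were RBM39, 72 nt, in replicate 11 (2.52%) and SREK1, 142 nt, in replicate 11 (97.6%). Both values of the 142-nt SREK1 exon rest mainly on a junction shared with a 145-nt coding form. The TRA2A value likewise rests mainly on a junction shared with other forms. DMSO replicate 12 stood apart in an HNRNPM exon (82.4%, others 76.6 to 77.3%) and a CLK4 exon (26.7%, others 19.0 to 19.7%). DMSO replicate 9 was the highest of its group for the upstream SREK1 junction (13.2%, others 9.31 to 9.85%) and for the 70-nt and 93-nt SREK1 forms (7.07% in both, others 4.90 to 5.20%), which lies toward the LMI070 values.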

How the results depend on the processing

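No paired analysis was possible because the groups share no replicate number (13 to 16 in LMI070, 9 to 12 in DMSO). The 2 SREK1 junctions passed in every alternative run. Leaving out 1 library at a time moved the upstream junction between 13.6 and 16.6 points and the downstream one between -17.3 and -14.4 points. Exons that passed numbered 2, and 0 in lane 8 alone, with DESeq2 and with the less covered inclusion junction; they numbered 2 without each library. Passing 3′ UTR introns numbered 0 to 1 over left-out libraries, the 1 being SRSF2 without DMSO replicate 10. Genes that passed numbered 0, but 9 in lane 7 alone, 2 in lane 8 alone and 4 without the filter on low counts. The interaction count was 7 to 12 over left-out lane 7 libraries, with 12 without DMSO replicate 11, where 12.4% of all genes passed, and 11 without DMSO replicate 12 and LMI070 replicate 16, where 7.1% did, against 2.94% with all libraries. HNRNPH3 reversed to -0.186 in lane 8 alone, where its log2 fold change over all libraries was 0.34. The cause was not tested. Retained introns leave no junction read, and exons with few reads have wide intervals.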

Other observations

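Unannotated junctions that share a splice site with a listed gene and were read in at least 3 libraries of 1 group and in none of the other numbered 11 in LMI070, in 8 genes and with 3 to 10 reads each, and 8 in DMSO, in 7 genes and with 3 to 8 reads each, of 1248 unannotated junctions. The 11 include the SREK1 junctions chr5:66164678-66164782 and chr5:66164701-66164782 described above, with 4 and 10 reads. The share over unannotated junctions of all genes is not given here, so no weight is placed on these counts.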
